A study of Mus musculus with 12 samples.

Results

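Complement components and receptors were described in mouse bone marrow-derived macrophages as 8 genes: C1qa, C1qb and C1qc, C3, Cfb and Cfp, and the receptor genes C3ar1 and C5ar1. They were the rows of the deposited count table whose Ensembl identifiers carry these symbols, 8 of 56980 identifiers, and all 8 passed the filter on low counts that left 15110 genes to test. In the table they are C1qa (ENSMUSG00000036887), C1qb (ENSMUSG00000036905) and C1qc (ENSMUSG00000036896), on chromosome 4, C3 (ENSMUSG00000024164) and Cfb (ENSMUSG00000090231), on chromosome 17, Cfp (ENSMUSG00000001128), on chromosome X, C3ar1 (ENSMUSG00000040552), on chromosome 6, and C5ar1 (ENSMUSG00000049130), on chromosome 7. Bone marrow cells had been cultured for 7 days with L929-conditioned medium, and RNA sequencing gave 3 libraries in each of 4 groups. The group cKO_M1 had the genotype RankCre-Regnaes3cKO, read here as a conditional knockout of Regnase-3 by a Cre named for RANK, and received 100 ng/ml LPS together with 10 ng/ml interferon-gamma. WT_M1 was wildtype with that stimulation, cKO_M0 was the knockout without it, and WT_M0 was wildtype without it. A control with Cre alone is not described, so an effect of Cre and one of the deletion cannot be told apart. Whether the replicates came from different mice or dishes is not stated, and the p-values therefore describe the scatter of these libraries, which may be technical.

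Complement is a cascade of plasma and locally made proteins that tags particles for uptake and calls in leukocytes. The classical pathway starts when C1q, assembled from the chains encoded by C1qa, C1qb and C1qc, binds antibody complexes or cell debris. In the alternative pathway factor B (Cfb) joins the cleaved form of C3 and properdin (Cfp) stabilises the resulting enzyme. The fragments C3a and C5a act through the G protein-coupled receptors encoded by C3ar1 and C5ar1. Most complement proteins in plasma come from the liver, but macrophages are a well-known source of C1q and properdin.

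Library totals lay between 41721452 and 42197986 counts, and the 8 genes held 1.056% to 1.1599% of the counts in cKO_M1, 0.903% to 0.954% in WT_M1, 0.582% to 0.616% in cKO_M0 and 0.561% to 0.646% in WT_M0. Levels are given in CPM (counts relative to library size) after TMM scaling, whose factors averaged 0.840 in cKO_M1, 0.808 in WT_M1, 1.22 in cKO_M0 and 1.21 in WT_M0. All 10 macrophage markers had counts in every group, with a summed level of 15151 to 19641 CPM in a library. B cell and plasma cell markers summed to 0.455 to 0.794 CPM in cKO_M1, 3.16 to 5.20 in WT_M1, 32.9 to 62.4 in cKO_M0 and 53.7 to 70.6 in WT_M0. Neutrophil markers summed to 7.30 to 16.2 CPM in cKO_M1, 6.49 to 11.03 in WT_M1, 1.0796 to 2.27 in cKO_M0 and 1.0788 to 2.99 in WT_M0. Most of the M1 sums was S100a8 alone, at 7.24 to 15.6 CPM in cKO_M1 and 6.07 to 10.4 in WT_M1. Other genes of that list did not share its rise: Mpo reached 0.919 CPM in M0 and 0.117 in M1, and Elane 0.236 and 0. Dendritic cell markers summed to 3.34 to 4.602 CPM in cKO_M1, 4.09 to 4.57 in WT_M1, 0.589 to 1.22 in cKO_M0 and 0.819 to 0.905 in WT_M0. Over all libraries, stromal markers reached at most 4.89 CPM, T and NK cell markers 0.400, erythroid markers 0.341, mast cell, basophil and eosinophil markers 0.291 and hepatocyte markers 0.117. Dcn of the stromal list had 0.849 to 1.25 CPM in cKO_M1 and 1.62 to 1.99 in WT_M1, against at most 0.156 in M0. Some M0 libraries differed from others of their group. The stromal maximum was WT_M0 replicate 4, where Col1a1 had 1.72 CPM against at most 0.0568 elsewhere. Of the B cell and plasma cell list, Igkc had 6.16 CPM in cKO_M0 replicate 1 against 0.0785 and 0 in replicates 2 and 3. In WT_M0 it had 7.55, 3.42 and 6.71 CPM, so cKO_M0 replicate 1 lay within the WT_M0 range. The part of these cells in the results was not tested. Zc3h12c, which encodes Regnase-3, had 3463, 3652 and 4484 counts in cKO_M1 against 6020, 6392 and 5424 in WT_M1 (log2 fold change -0.68, SE 0.12, adjusted p = 0.00101 by edgeR's quasi-likelihood test), and 703, 944 and 751 in cKO_M0 against 878, 819 and 794 in WT_M0 (adjusted p = 0.809). The table gives totals per gene, and no source used here names the exons that the deletion removes.

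The stimulation set the largest differences among the complement genes. C3 and Cfb rose steeply with LPS and interferon-gamma in both genotypes, C5ar1 fell in both, and the C1q chains, Cfp and C3ar1 had differences of less than 2-fold whose size depended on the scaling, as did the direction of C1qa, C1qc and C3ar1 in WT. Between the genotypes, C5ar1 was higher in cKO than in WT after stimulation, a call that held in all 12 fits without 1 library. C1qa was higher there too, but its libraries overlapped and its call held in 8 of the 12 fits. None of the 8 genes passed the test before stimulation, when 1.61% of all tested genes did. That share varied with the libraries used: the 244 genes behind it became 1 when cKO_M0 replicate 3 was left out and 32 when replicate 2 of that group was. Leaving out WT_M0 replicate 6 gave 4, and leaving out replicate 4 of the same group gave 12. The number rose to 337 without cKO_M0 replicate 1 and to 407 without WT_M0 replicate 5. Why it varied was not tested.

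**Figure D1:**
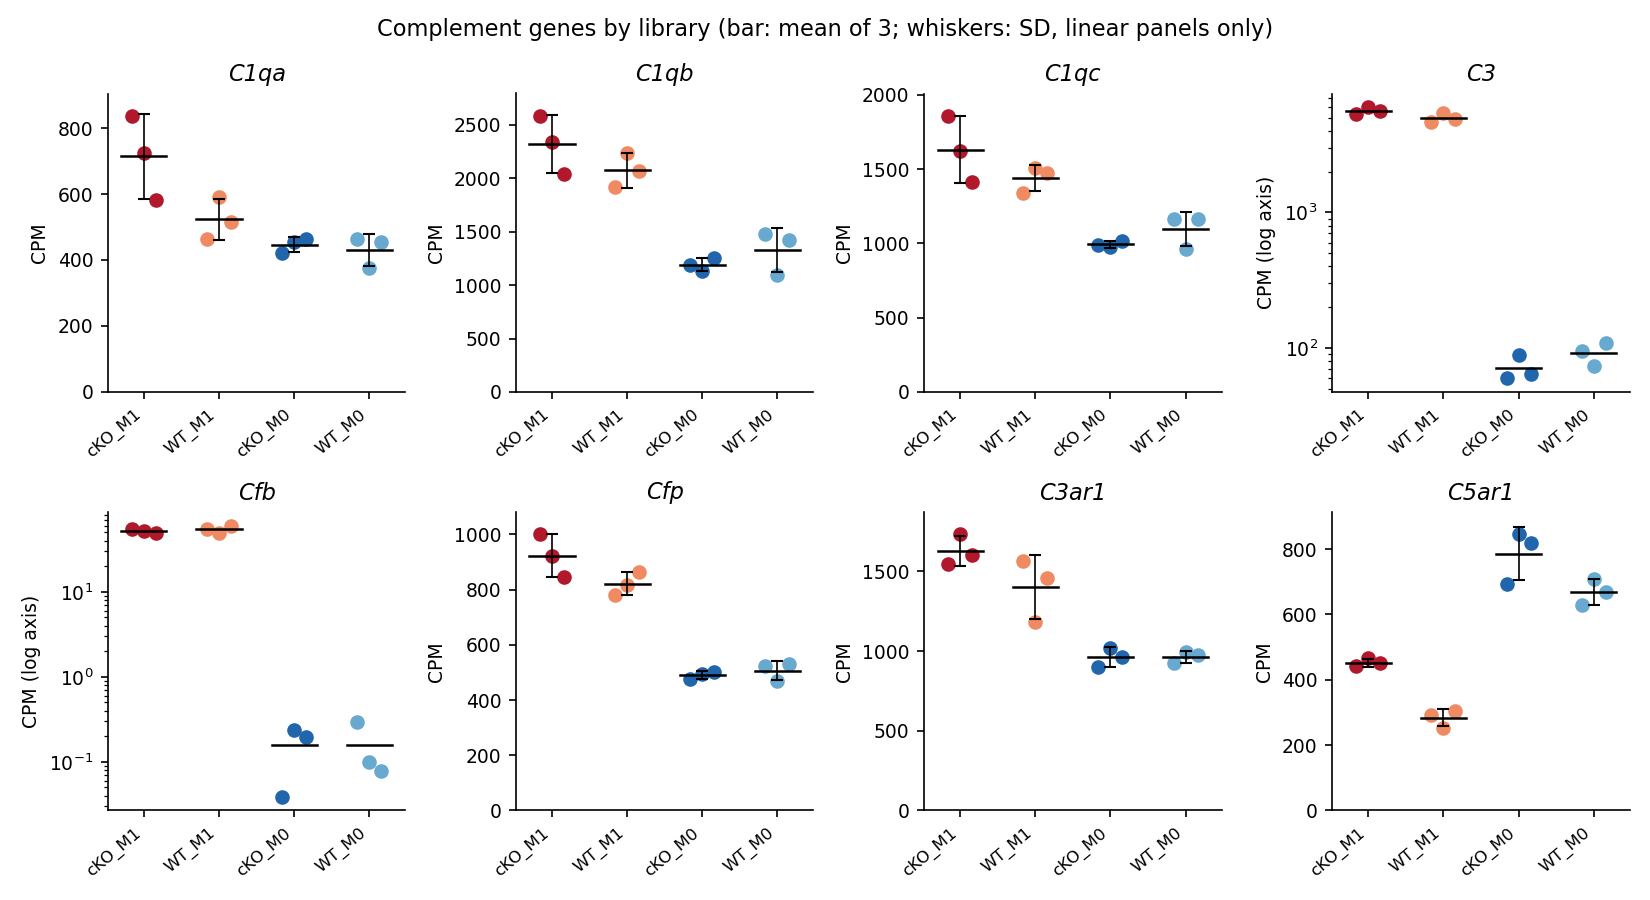
Levels of the 8 complement genes in each library (vertical axes, CPM, from 0, or logarithmic for C3 and Cfb), with the groups cKO_M1, WT_M1, cKO_M0 and WT_M0 from left to right; points are libraries, horizontal bars are means of 3 and whiskers, on linear axes, are SDs. The 3 cKO_M1 libraries lie between 441 and 465 CPM for C5ar1, all above the WT_M1 libraries and below the M0 libraries.

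Compared per kilobase of gene length, C1qb was the highest of the 8 genes in every group, at 2135 ± 253 CPM per kilobase in cKO_M1, 1908 ± 149.96 in WT_M1, 1096 ± 57.4 in cKO_M0 and 1224 ± 190 in WT_M0 (SD, n = 3 each). In M0, C1qc and C1qa followed in both genotypes, and C3 stood well below, at 13.8 ± 2.97 CPM per kilobase in cKO_M0 and 18.1 ± 3.48 in WT_M0. In M1 C3 moved to the second place, at 1089.6 ± 66.5 CPM per kilobase in cKO and 968 ± 75.3 in WT, above C1qc and without overlap with it. C5ar1 lay close to Cfp in M0 (306 ± 31.4 and 283 ± 8.30 CPM per kilobase in cKO_M0, with overlapping libraries) and was the lowest but Cfb in M1, at 176 ± 4.76 CPM per kilobase in cKO and 110.4 ± 10.3 in WT. Neighbours whose libraries overlapped were C5ar1 and Cfp in both M0 groups, C1qa and Cfp in both M1 groups, and C1qc and C1qa in cKO_M1. Cfb had the lowest value everywhere, but its level cannot be set against the others. In the GENCODE M21 annotation, exons of the predicted gene Gm20547 on the same strand cover 79.5% of the exonic bases of Cfb, Gm20547 had 0 counts in all 12 libraries, and no source used here says how reads shared by 2 genes were counted.

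Among the classical-pathway genes, C1qa, C1qb and C1qc encode the 3 chains of C1q. C1qa had 838, 725 and 581 CPM in cKO_M1 replicates 7, 8 and 9, 465, 590.1 and 514 in WT_M1 replicates 10, 11 and 12, 421, 454 and 465 in cKO_M0 replicates 1, 2 and 3, and 463, 374 and 455 in WT_M0 replicates 4, 5 and 6. C1qb had 2588, 2342 and 2039 CPM in cKO_M1, 1916, 2242 and 2069 in WT_M1, 1189, 1132 and 1257 in cKO_M0, and 1475, 1095 and 1425 in WT_M0. With TMM scaling every M1 library of a genotype lay above its M0 libraries for both genes, and the 2 genotypes overlapped in each state. For C1qa in WT the margin was small, at 465.1 CPM in WT_M1 replicate 10 and 463.5 CPM in WT_M0 replicate 4. C1qc ranged over 1416 to 1861 CPM in cKO_M1, 1338 to 1508 in WT_M1, 975 to 1015 in cKO_M0 and 965 to 1165 in WT_M0. Within the M1 groups the 3 chains put the libraries in the same order, with replicate 7 highest and replicate 9 lowest in cKO_M1, and replicate 11 highest and replicate 10 lowest in WT_M1. WT_M0 replicate 5 was the lowest of its group for all 3 chains.

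In M1 against M0 the C1q chains rose with TMM scaling in cKO, by log2 fold changes of 0.68 (SE 0.13) for C1qa, 0.96 (SE 0.11) for C1qb and 0.72 (SE 0.10) for C1qc (adjusted p at most 0.000174, edgeR's quasi-likelihood test). In WT, C1qb and C1qc rose by 0.64 (SE 0.11) and 0.39 (SE 0.10), and C1qa had a value of 0.28 that did not pass (adjusted p = 0.0570, 95% interval 0.013 to 0.55). By the same test C1qa passed as higher with DESeq2 size factors (0.30, adjusted p = 0.0375), no filter on low counts (0.27, 0.0106) and only the groups compared (0.31, 0.0218). It also passed with DESeq2 and in 3 of the 12 fits without 1 library, but not with limma-voom or halved counts. These values rest on the scaling. With library totals alone the median of all tested genes shifted by -0.53 in cKO and by -0.58 in WT, and the same contrasts gave 0.14, 0.43 and 0.18 for C1qa, C1qb and C1qc in cKO, of which C1qb passed. In WT library totals gave -0.31 for C1qa, now a fall that passed (adjusted p = 0.0321), 0.054 for C1qb and -0.19 for C1qc. The bulk libraries cannot tell a change in the RNA per cell from a change in the cells that hold it.

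The ratio between chains within a library does not depend on the scaling. C1qa stood at 0.320 ± 0.0206 of C1qb per kilobase in cKO_M1 and 0.263 ± 0.0110 in WT_M1, and at 0.392 ± 0.0250 in cKO_M0 and 0.340 ± 0.0155 in WT_M0 (SD, n = 3 each). It was thus higher in cKO than in WT in each state and lower in M1 than in M0 in each genotype, with no overlap between libraries. Each of these 4 comparisons gave p = 0.10 in a two-sided exact permutation test (adjusted p = 0.12 over 12 ratio comparisons), the smallest that 3 against 3 libraries can give, so none could pass. The ratio of C1qc to C1qb was 0.395 ± 0.00848 in cKO_M1, 0.391 ± 0.0115 in WT_M1, 0.470 ± 0.0152 in cKO_M0 and 0.467 ± 0.0267 in WT_M0. It was lower in M1 than in M0 without overlap, and it overlapped between the genotypes.

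**Figure D2:**
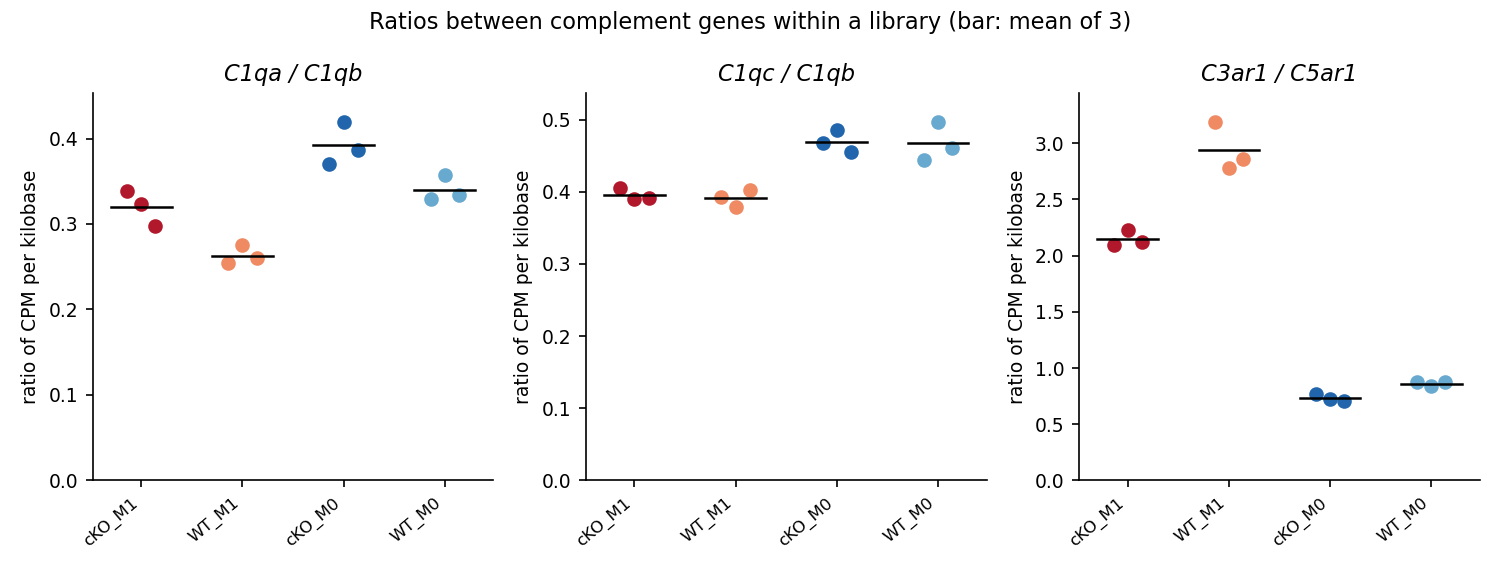
Ratios of CPM per kilobase between C1qa and C1qb, C1qc and C1qb, and C3ar1 and C5ar1 within each library (vertical axes, from 0), by group; points are libraries and bars are means of 3. The ratio of C1qa to C1qb is higher in cKO than in WT in each state, that of C1qc to C1qb overlaps between genotypes, and that of C3ar1 to C5ar1 is above 2 in all M1 libraries and below 1 in all M0 libraries.

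In cKO_M1 against WT_M1, C1qa rose by a log2 fold change of 0.45 (SE 0.13, adjusted p = 0.0209, edgeR's quasi-likelihood test), with means of 714 ± 129 CPM in cKO_M1 and 523 ± 63.0 CPM in WT_M1. Its libraries overlapped, since cKO_M1 replicate 9 at 581 CPM lay below WT_M1 replicate 11 at 590.1 CPM. The call was lost without cKO_M1 replicate 7 or 8 (adjusted p = 0.104 and 0.0750) and without WT_M1 replicate 10 or 12 (0.0971 and 0.0624). C1qb and C1qc had values of 0.16 (95% interval -0.080 to 0.40) and 0.18 (-0.036 to 0.40), and neither passed. In M0 the 3 chains had values of 0.05, -0.16 and -0.14, with adjusted p of at least 0.463.

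The C1q genes lie side by side on chromosome 4 (GRCm38), all on the minus strand: C1qb at chr4:136880129-136886187, C1qc at chr4:136889804-136893065 and C1qa at chr4:136895917-136898803. The 250 bases before the RefSeq start site of C1qb (GRCm38.p6, chr4:136886201-136886450, minus strand) are shown because it was the highest of the 8 genes per kilobase; capitals mark a match to the PU.1 core GAGGAA.
C1qb: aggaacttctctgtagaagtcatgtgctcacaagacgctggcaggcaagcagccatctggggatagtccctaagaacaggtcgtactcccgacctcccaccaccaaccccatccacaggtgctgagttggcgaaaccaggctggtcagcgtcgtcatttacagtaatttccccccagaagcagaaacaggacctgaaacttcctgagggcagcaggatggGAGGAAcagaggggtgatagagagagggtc
Searched on both strands were this core, the GAS motif TTCNNNGAA, the C/EBP motif TTNNGNAA, the interferon-stimulated response element and the NF-kB motif. Of 32851 promoters of this length, 23.3% hold the PU.1 core, 7.02% GAS, 36.8% C/EBP, 2.98% the response element and 7.25% NF-kB. The window of C1qc held 1 match each to the PU.1, C/EBP and NF-kB motifs. The RefSeq table matched 6 of the 8 genes, C1qa and Cfb not among them.

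C3, whose product is the central protein of all complement pathways, had 5291, 5969 and 5550.5 CPM in cKO_M1 and 4635, 5398 and 4907 CPM in WT_M1, against 59.99, 88.5 and 64.7 CPM in cKO_M0 and 96.0, 73.9 and 109 CPM in WT_M0. The M1 libraries lay far above the M0 libraries of the same genotype, while the genotypes overlapped in each state. C3 rose 78.9-fold in cKO (log2 fold change 6.30, SE 0.18, adjusted p = 8.45e-14) and 53.5-fold in WT (5.74, SE 0.18, adjusted p = 1.95e-13, edgeR's quasi-likelihood test). With library totals the 2 log2 values were 5.77 and 5.16. The cKO and WT responses differed by 0.56 (SE 0.20, 95% interval 0.12 to 0.99), which did not pass over all genes (adjusted p = 0.106) but did with no filter on low counts (adjusted p = 0.000783) and when either replicate 2 of cKO_M0 or replicate 5 of WT_M0 was left out (adjusted p = 0.0233 and 0.0346). In M0 alone, C3 averaged 71.1 ± 15.3 CPM in cKO and 93.0 ± 17.9 CPM in WT (log2 fold change -0.39, SE 0.15, adjusted p = 0.173). In M1 it averaged 5604 ± 342 CPM in cKO and 4980.0 ± 387 CPM in WT (0.17, SE 0.14, adjusted p = 0.446).

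The 250 bases before the RefSeq start site of C3 (GRCm38.p6, chr17:57228137-57228386, minus strand) are shown because C3 had the largest response among the genes with a sequence here; capitals mark C/EBP matches.
C3: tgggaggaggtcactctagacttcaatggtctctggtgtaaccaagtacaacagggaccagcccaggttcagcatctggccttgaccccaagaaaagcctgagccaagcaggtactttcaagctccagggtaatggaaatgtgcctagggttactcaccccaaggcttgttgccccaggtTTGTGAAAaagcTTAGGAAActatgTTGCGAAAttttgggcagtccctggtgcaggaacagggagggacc
It held 3 C/EBP matches, whose first bases are at -70, -58 and -45 from the start site, where 36.8% of promoters hold at least 1 and 2.61% hold 3 or more. The other motifs had no match in this window.

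Cfb, which encodes the protease-bearing factor B of the alternative pathway, was close to the counting limit in M0, with 2, 12 and 10 counts in cKO_M0 and 15, 5 and 4 counts in WT_M0. After stimulation it had 1935, 1834 and 1721 counts in cKO_M1 and 1871, 1650 and 2051 counts in WT_M1. The M1 and M0 libraries were thus separated by more than 100 times in counts, and the genotypes overlapped in both states. Cfb rose by a log2 fold change of 8.35 (SE 0.26) in cKO and 8.41 (SE 0.26) in WT (adjusted p = 2.14e-13 and 2.13e-13, edgeR's quasi-likelihood test), values that rest on few M0 counts. The genotype difference was -0.08 in M1 (95% interval -0.40 to 0.24) and could not be bounded closely in M0 (-0.01, 95% interval -1.14 to 1.11). Most exonic bases of Cfb are shared with Gm20547 in the annotation, and which of its bases these counts come from is not known.

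Cfp encodes properdin, the stabiliser of the alternative pathway. It ranged over 846 to 1001 CPM in cKO_M1, 782 to 865 CPM in WT_M1, 475 to 503 CPM in cKO_M0 and 468 to 529.5 CPM in WT_M0. On this scale every M1 library lay above every M0 library. Unscaled counts overlapped in WT, with 26743 in WT_M1 replicate 10 and 26903 in WT_M0 replicate 6. With TMM scaling Cfp rose by 0.91 (SE 0.08) in cKO and 0.70 (SE 0.08) in WT on the log2 scale (adjusted p = 7.23e-08 and 1.48e-06, edgeR's quasi-likelihood test), and with library totals the values were 0.37, which passed, and 0.11, which did not (adjusted p = 0.211). The cKO value against WT was 0.17 in M1 (adjusted p = 0.170) and -0.04 in M0 (adjusted p = 0.813).

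Of the receptors, C3ar1, which binds C3a, had 1548, 1734 and 1600.5 CPM in cKO_M1 and 1566, 1180.0 and 1458 CPM in WT_M1, against 898, 1022 and 965 CPM in cKO_M0 and 923, 997 and 976 CPM in WT_M0. WT_M1 replicate 11 was the lowest M1 library. The stimulation raised C3ar1 with TMM scaling by 0.76 (SE 0.10) in cKO and 0.54 (SE 0.10) in WT on the log2 scale (adjusted p = 4.38e-06 and 0.000142, edgeR's quasi-likelihood test), whereas library totals gave 0.22 in cKO (adjusted p = 0.0523) and -0.044 in WT (adjusted p = 0.695). Between genotypes it had a log2 difference of 0.22 in M1 (95% interval 0.0080 to 0.42, adjusted p = 0.139) and -0.01 in M0.

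C5ar1, which binds C5a, went the other way. It had 441, 465 and 450.2 CPM in cKO_M1 and 293, 254 and 304 CPM in WT_M1, against 694, 846 and 818 CPM in cKO_M0 and 629.6, 709.6 and 669 CPM in WT_M0. All M1 libraries were below all M0 libraries, and the cKO_M1 libraries were all above the WT_M1 libraries, while cKO_M0 and WT_M0 overlapped. C5ar1 fell 1.74-fold in cKO (log2 fold change -0.80, SE 0.09, adjusted p = 1.21e-06) and 2.36-fold in WT (-1.24, SE 0.09, adjusted p = 7.33e-09, edgeR's quasi-likelihood test). Library totals made both falls larger, at -1.33 and -1.82.

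In cKO_M1 against WT_M1, C5ar1 rose 1.59-fold (log2 fold change 0.67, SE 0.09, adjusted p = 0.000197, edgeR's quasi-likelihood test), with means of 452 ± 12.2 CPM in cKO_M1 and 284 ± 26.4 CPM in WT_M1. That call held in all 12 fits that left out 1 library, with values from 0.58 to 0.71 and adjusted p of at most 0.00199. In M0 the difference was 0.23 (95% interval 0.037 to 0.43) and did not pass (adjusted p = 0.195). The stimulation response in cKO minus that in WT was 0.44 (SE 0.13, adjusted p = 0.0487), so that the fall was smaller in cKO. This test of the difference passed narrowly, and in 3 of the 12 fits without 1 library; it was lost without cKO_M0 replicate 1 or 3, any WT_M0 replicate, cKO_M1 replicate 8 or 9, or WT_M1 replicate 10 or 11 (adjusted p 0.0564 to 0.1103).

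The ratio of C3ar1 to C5ar1 per kilobase put both receptors on a scale free of library scaling. It was 2.15 ± 0.0686 in cKO_M1 and 2.94 ± 0.217 in WT_M1, and 0.733 ± 0.0354 in cKO_M0 and 0.862 ± 0.0200 in WT_M0 (SD, n = 3 each). Libraries did not overlap in any of the 4 comparisons, each of which again had the smallest possible p of 0.10 in the exact permutation test.

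The RefSeq window of C5ar1 held 1 C/EBP match, whose first base is at -157 from the start site, and those of C3ar1 and Cfp held no match to the 5 motifs.

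**Figure D3:**
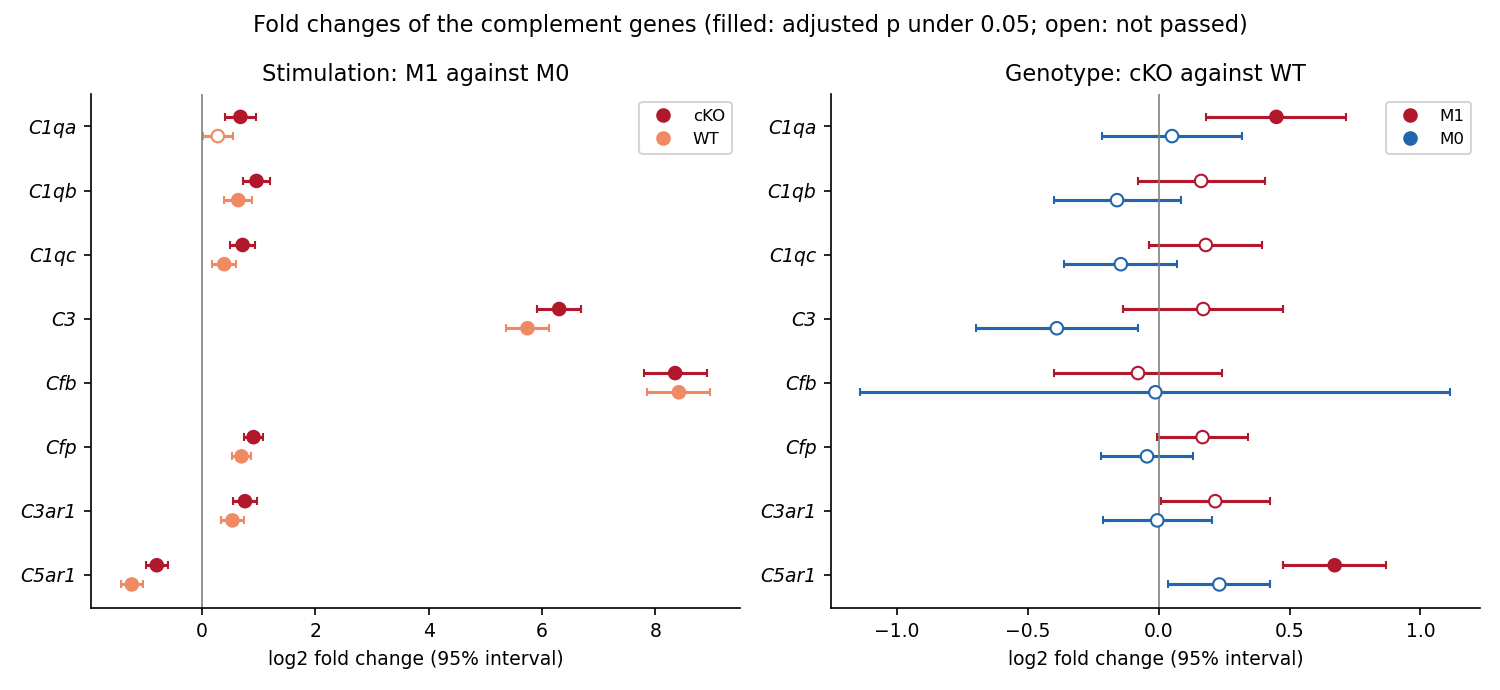
Log2 fold changes with TMM scaling and 95% intervals (horizontal axes) of the 8 genes for M1 against M0 in cKO and WT (left panel) and for cKO against WT in M1 and M0 (right panel); filled points passed at an adjusted p under 0.05. C3 and Cfb lie between 5.74 and 8.41 on the left, C5ar1 lies below 0 there, and on the right the filled points are C1qa and C5ar1 in M1.

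Counted over the 8 genes, M1 against M0 gave 7 higher and 1 lower in cKO, where 70.2% of all tested genes were called, 34.2% higher and 36% lower. In WT it gave 6 higher and 1 lower, where 71.4% were called, 34.2% higher and 37.1% lower. With TMM scaling, libraries of the 2 states did not overlap for any of the 8 genes in either genotype, as for 72.7% of all tested genes in cKO and 75.6% in WT. In unscaled counts they overlapped in WT for C1qa, C1qb, C1qc, Cfp and C3ar1, and in cKO for C1qa and C1qc. C1qa, for example, had 15902 to 19635 counts in WT_M1 and 18741 to 23697 in WT_M0. The share of all genes without overlap in unscaled counts was not computed. The median log2 fold change of the 8 was 0.83 in cKO and 0.59 in WT, beside -0.04 and -0.07 over all tested genes. With library totals the counts were 4 higher and 1 lower in cKO and 2 higher and 2 lower in WT. That scaling called 11469 of all 15110 tested genes in cKO and 11769 in WT, in either direction. These 2 comparisons share no libraries. For cKO against WT in M1, 2 of the 8 were higher and 0 lower, beside 8.98% higher and 9.67% lower of all tested genes (18.6% in all), with a median of 0.18 beside 0.02. In M0, 0 of 8 passed with edgeR, DESeq2 or limma-voom, where 1.61% of all tested genes did with edgeR (0.662% higher and 0.953% lower), and 2, C3 and C5ar1, had an unadjusted p under 0.05. No member was free of overlap in M0, where 26.2% of all tested genes were, and 1, C5ar1, was in M1, where 33.7% were. For the difference between the responses, 1 of 8 passed as higher, beside 8.16% of all tested genes (4.02% higher and 4.14% lower), and the median was 0.32 beside -0.0039.

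**Figure D4:**
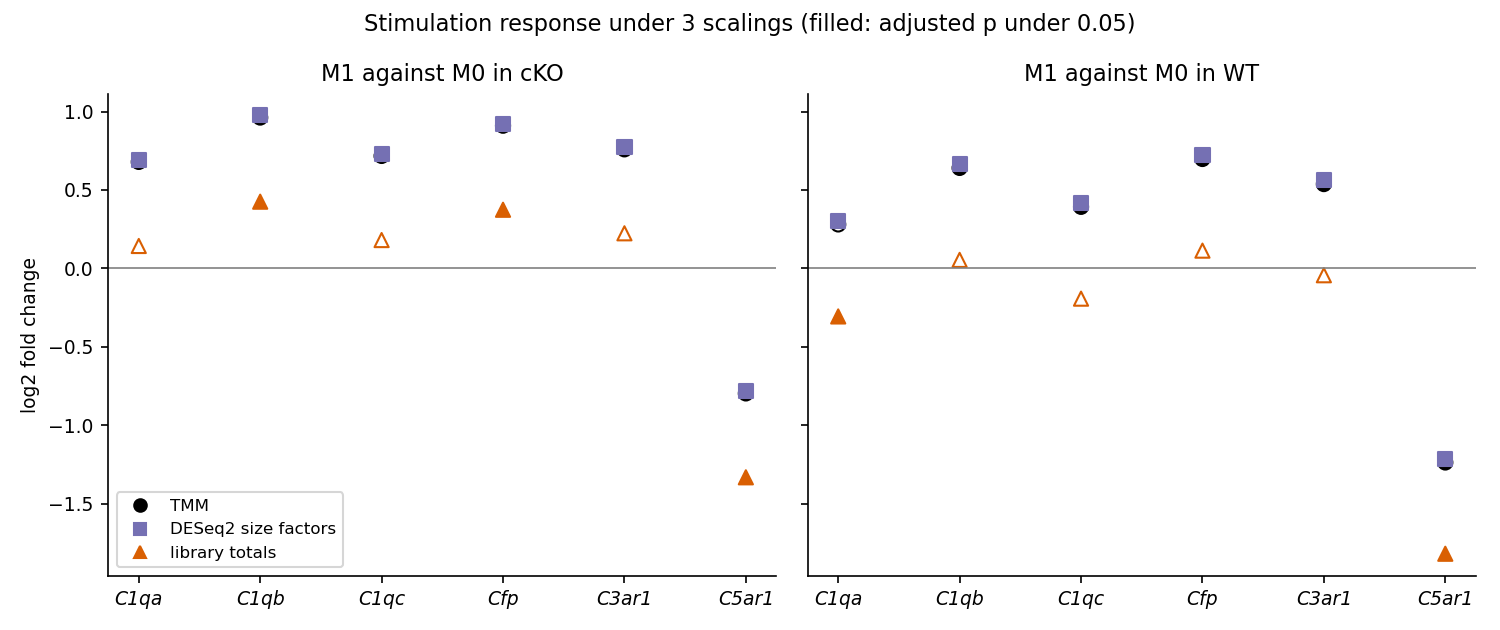
Log2 fold change of M1 against M0 (vertical axis) in cKO and WT for the 6 genes other than C3 and Cfb, with TMM scaling, DESeq2 size factors and library totals; filled symbols passed at an adjusted p under 0.05. TMM and DESeq2 size factors nearly coincide, library totals lie lower throughout, and C1qa, C1qc and C3ar1 in WT change side of 0.

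Of 47 other genes of the complement system, 30 could be tested. In M1 against M0, 13 rose and 11 fell in cKO, and 12 rose and 9 fell in WT, beside the 70.2% (34.2% higher and 36% lower) and 71.4% (34.2% higher and 37.1% lower) of all tested genes called there. With library totals 11 were higher and 13 lower in each genotype, beside 11469 of all 15110 tested genes called in cKO and 11769 in WT. In the classical and lectin group, 7 of 10 tested genes rose and 2 fell in each genotype with TMM scaling. C1ra, which encodes the C1r protease that works with C1q, had 52.6 to 56.0 CPM in cKO_M1 and 47.6 to 49.95 CPM in WT_M1, against 6.07 to 6.41 CPM in cKO_M0 and 6.37 to 7.59 CPM in WT_M0. It rose by 3.12 (SE 0.09) in cKO and 2.80 (SE 0.09) in WT on the log2 scale. C1s1, the gene of the partner protease, had 136 to 161 counts in cKO_M1 and 89 to 129 counts in WT_M1, against 0 to 7 counts in cKO_M0 and 2 to 7 counts in WT_M0, and rose in both genotypes, with no fold given because the M0 counts are few. C4b, a gene of component C4, rose by 2.91 in cKO and 2.97 in WT, although C4b shares near-identical sequence with C4a, and C1ra and C1s1 have close copies too, so how their reads were divided is uncertain. The ficolin gene Fcna, a starter of the lectin pathway, fell in both genotypes, with log2 fold changes of -1.60 in cKO and -1.42 in WT.

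Of 6 membrane inhibitors, 1 rose and 2 fell in cKO, and 1 rose and 1 fell in WT. Serping1, which encodes the C1 inhibitor, a soluble inhibitor, had 179, 161 and 133 counts in cKO_M1 and 201, 194 and 188 in WT_M1, against 0, 2 and 0 counts in cKO_M0 and 2, 4 and 2 in WT_M0. It passed as higher in both genotypes (adjusted p = 6.06e-11 and 5.18e-11, edgeR's quasi-likelihood test), and no fold is given because the M0 counts are at the floor.

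Among 9 other receptors and binding proteins, 3 rose and 5 fell in each genotype. C5ar2, the other C5a receptor, fell, with log2 fold changes of -2.31 (SE 0.15) in cKO and -2.83 (SE 0.15) in WT. Itgam and Itgb2, which encode the chains of complement receptor 3, rose by 1.504 and 1.52 in cKO and by 1.22 and 1.33 in WT. Cd93 fell (-1.98 in cKO and -1.84 in WT), as did C1qbp, which encodes a C1q-binding mitochondrial protein (-1.69 in cKO and -1.45 in WT). Each gene named by rank kept its direction and its call with library totals, but the sizes changed. Itgam and Itgb2 then rose by 0.968 and 0.982 in cKO and by 0.636 and 0.742 in WT. C1qbp had -2.23 in cKO and -2.03 in WT.

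**Figure D5:**
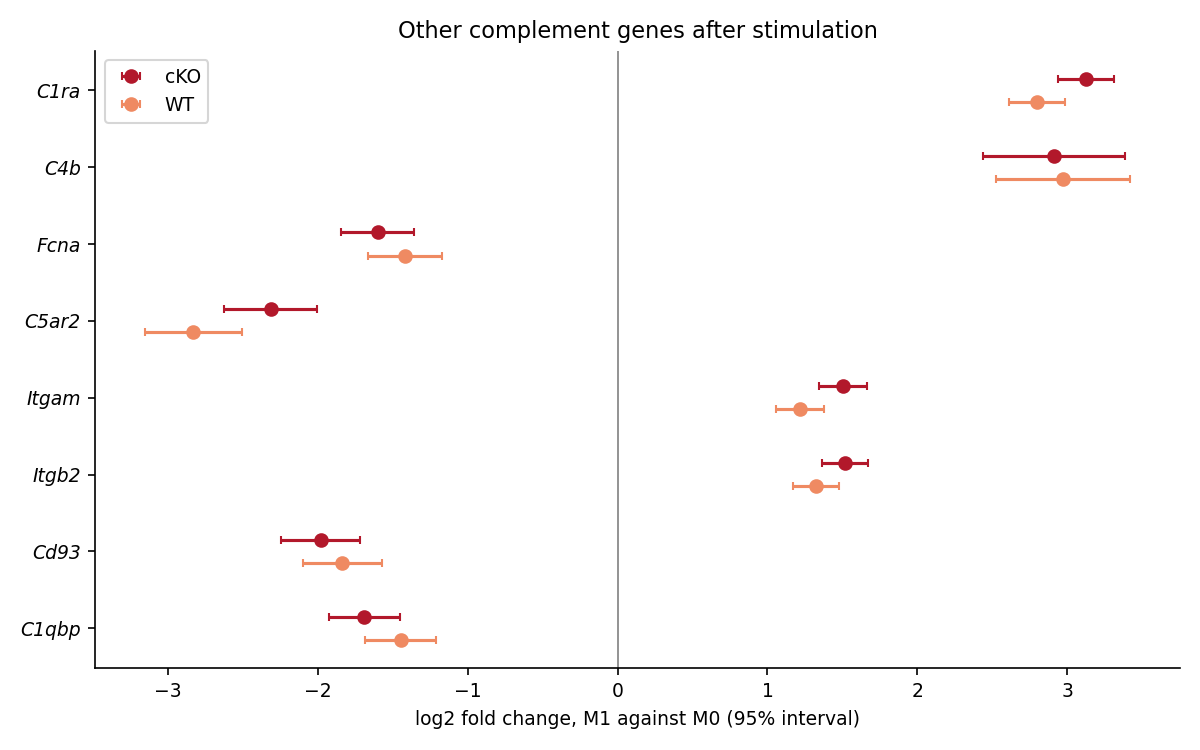
Log2 fold change of M1 against M0 with 95% interval (horizontal axis) in cKO and WT for 8 of the other complement genes, each named by its rank among the genes that passed in at least 1 genotype; Serping1 and C1s1 are left out because of their M0 counts. C1ra and C4b lie between 2.80 and 3.12, and C5ar2 lies farthest to the left of these 8 in both genotypes.

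Between genotypes, 2 of the 30 tested genes were higher and 2 lower in cKO_M1 than in WT_M1. Of all tested genes, 8.98% were higher and 9.67% lower there (18.6% in all). C5ar2 was higher in cKO_M1, at 3.64, 3.77 and 4.02 CPM against 3.13, 2.07 and 2.43 CPM in WT_M1 (log2 fold change 0.58, SE 0.16, adjusted p = 0.0216, edgeR's quasi-likelihood test). The 2 groups did not overlap. The C5ar2 call was lost without cKO_M1 replicate 8 or 9 or WT_M1 replicate 11 or 12 (adjusted p 0.0550 to 0.115) with limma-voom (0.0793) and with only the groups compared (0.0711). Itgam rose by 0.25 (SE 0.07, adjusted p = 0.0268), a call lost without cKO_M1 replicate 7 or 8 or WT_M1 replicate 11 or 12 (adjusted p 0.0579 to 0.152), with no filter on low counts (0.0834) and with only the groups compared (0.0873). C4b fell by 0.66 (SE 0.19, adjusted p = 0.0235), lost without cKO_M1 replicate 7 or WT_M1 replicate 10 (0.0610 and 0.0783). Itgax, which encodes the alpha chain of complement receptor 4, had 18.4, 24.0 and 29.0 CPM in cKO_M1 against 44.4, 49.7 and 43.8 CPM in WT_M1, and fell by 0.95 (SE 0.14, adjusted p = 0.000325), a call that no left-out library removed. In M0 Itgax was also lower in cKO (-0.64, SE 0.14, adjusted p = 0.0407), but 8 of the 12 fits without 1 library lost that call (adjusted p up to 0.227). No other of the 30 genes passed in M0, where 1.61% of all tested genes did. In the difference between the responses, 0 of the 30 genes passed with edgeR or limma-voom and 1 with DESeq2, and 5 had an unadjusted p under 0.05, C5ar2 at 0.52 (adjusted p = 0.144) among them. Of all 15110 tested genes, 8.16% passed there with edgeR, 1221 genes with limma-voom and 1906 with DESeq2.

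The genes most like each member were sought among 9170 genes as those with the smallest root-mean-square difference between log2 CPM profiles centred on their means, over the 12 libraries. For C1qa they were H2afj (0.082), Tmem101 (0.12) and Ccdc124 (0.12), for C1qb Rras (0.066), Surf1 (0.078) and Ifitm2 (0.098), and for C1qc Tpgs1 (0.068), Ilvbl (0.070) and Atox1 (0.073). Cfp was closest to Ncf1, Spi1 and Chmp1a (0.064 to 0.066), C3ar1 to Pdgfc, Zc3h7a and Hnrnph2 (0.065 to 0.073), and C5ar1 to Kat2a, Rhobtb2 and Ctbp2 (0.081 to 0.11). C3, with a far wider spread, was closest to Gbp6, Thbs1 and Fgl2 (0.28 to 0.29), and Cfb to Tgtp1, Fpr2 and Gbp11 (0.52 to 0.53). Among the 28 pairs of the 8 genes themselves, the closest was C1qb with Cfp (0.089), ahead of C1qb with C1qc (0.13), and the farthest was Cfb with C5ar1 (4.64). These distances describe likeness of level across the same libraries, most of which is the difference between M1 and M0.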

How the data were processed

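The authors deposited raw counts per gene and library, with a gene length in bases (unit other), per the file headers. Per the submitters' processing notes, the tools were featureCounts 2.0.3, SAMtools 1.16.1, HISAT2 2.2.1 and Trimmomatic 0.39, with the build GRCm39. Strand option, multi-mapping and annotation release: not given in the sources used here. Of 56980 identifiers, 52073 matched a symbol. Of the deposited counts from 1 to 10, 60.9% were even, so halved counts were one alternative.

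Tests used R 4.3.3 and edgeR 4.0.16: filterByExpr (minimum count 10, minimum total 15), TMM, 1 mean per group over all 12 libraries, edgeR's quasi-likelihood test, and Benjamini-Hochberg adjusted p over 15110 genes, with a threshold of 0.05 and 95% intervals. SEs come from the fold change and F. The scripts were tested on simulated data. Alternatives used DESeq2 1.42.0 and limma 3.58.1, among others. CPM per kilobase uses the deposited length.

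The members and lists were chosen with earlier results of these data known. Named were the 8 members, up to 10 other complement genes per comparison (passed, at least 1 CPM in the higher group, smallest p; C4b is also given in cKO and C1s1 in both genotypes, C4b and C1s1 being named in 1 of them), and 3 like genes per member. Exon overlap, chromosomes and promoters are of GRCm38 (GENCODE M21, RefSeq). No coordinate was converted. One gene that the rule names is not reported here.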

Additional observations from a re-analysis of the deposited data

Results flagged for a closer look

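C5ar1 was singled out because its response to stimulation differed between the genotypes in a test of the difference itself: the log2 change in cKO minus that in WT was 0.44 (SE 0.13, adjusted p = 0.0487 by edgeR's quasi-likelihood test), and all M1 libraries lay below all M0 libraries. Other settings with all libraries gave 0.41 to 0.49, and the adjusted p crossed the threshold with DESeq2 size factors (0.0591). Groups of 3 libraries are too small to look for single outlying libraries by a formal rule.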

How the results depend on the processing

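No paired analysis was possible because the replicate numbers run from 1 to 12 and no number is shared between groups. For the 8 genes, the scaling mattered most. With library totals alone, M1 against M0 in WT called 4 genes, 2 higher and 2 lower, with C1qa at -0.31, C1qc at -0.19 and C3ar1 at -0.044 on the other side of 0, and in cKO it called 5 genes, 4 of them higher. Over all 15110 tested genes this setting called 11769 in WT and 11469 in cKO. With no filter on low counts, 1 gene was called between cKO and WT in M0 (C3) and 2 in the difference between responses (C3 and C5ar1), against 0 there with DESeq2 size factors in edgeR. Over all genes these settings called 1182 and 1972 of 27501, and 1197 of 15110. Values near 0 changed sign: C3ar1 in M0 at 0.0023 with library totals and 0.0040 with no filter, and the Cfb difference between responses at 0.020 with limma-voom. Without 1 library, the calls ranged from 1 to 2 between genotypes in M1 and from 0 to 2 in the difference between responses. Over all genes those ranges were 1658 to 3082 and 565 to 1576. Values that changed sign ranged from -0.42 to 0.79 (Cfb), -0.048 to 0.044 (C3ar1) and -0.038 to 0.11 (C1qa) in M0, and from -0.87 to 0.34 for the Cfb difference between responses.

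For the other complement genes, alternatives added after seeing the data gave 2 calls in M0 with no filter and 2 with DESeq2, beside 1182 of 27501 and 871 of 15110 genes in all. They gave 2 in M1 with only the groups compared, beside 2175 of 13524 genes. In the difference between responses they gave 1 with no filter and 1 with DESeq2, beside 1972 of 27501 and 1906 of 15110 genes. Without 1 library the calls ranged from 0 to 2 in M0, 2 to 4 in M1 and 0 to 1 in the difference. Over all genes those ranges were 1 to 452, 1658 to 3082 and 565 to 1576. The cause was not tested for any of these. Over the 8 genes and the other named genes, single-gene results kept their direction and side of the threshold 424 times under another setting (6 reversed, 6 gained and 10 lost the call) and 732 times without 1 library (11 reversed, 6 gained and 31 lost it). Over all genes, the calls between genotypes in M0 numbered 244 of 15110 tested, against 871 with DESeq2 and 491 with limma-voom on the same genes. Other settings tested other numbers of genes, with 1182 calls of 27501 with no filter, 394 of 14412 with only the groups compared and 373 of 13700 with halved counts. Without 1 library the M0 calls ranged from 1 to 452, with the fewest without cKO_M0 replicate 3 (1), WT_M0 replicate 6 (4), WT_M0 replicate 4 (12), cKO_M0 replicate 2 (32), WT_M1 replicate 10 (65), cKO_M1 replicate 8 (72) and WT_M1 replicate 12 (91), and the most without cKO_M1 replicate 7 (452), cKO_M1 replicate 9 (435) and WT_M0 replicate 5 (407). In M1 the 2818 calls became 1658 without WT_M1 replicate 11 and 1694 without cKO_M1 replicate 8. For the difference between responses they numbered 1233 of 15110, against 1972 of 27501 with no filter and 1906 of 15110 with DESeq2, and 565 to 1576 without 1 library, the fewest without cKO_M1 replicate 8. Depth limits Cfb in M0, with 2 to 15 counts a library.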

Other observations

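C2, the gene next to Cfb on chromosome 17 and the classical-pathway counterpart of factor B, shares 42.8% of its exonic bases with Gm20547 in the GENCODE M21 annotation. It had 40, 49 and 50 counts in cKO_M1 and 52, 44 and 75 in WT_M1, against 13, 9 and 15 in cKO_M0 and 15, 17 and 12 in WT_M0. C2 passed as higher in M1 in both genotypes (log2 fold changes 2.43 and 2.53, edgeR's quasi-likelihood test, adjusted p = 4.82e-06 and 2.10e-06). No source used here says how reads on shared bases were counted. C2 was chosen for this note after its values were seen.

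Among the other complement genes that were too low to test, Cfd, C6, C8a, C4bp, Vtn and Mbl2 had 0 counts in all libraries, and Hc, which encodes C5, had at most 9 in a library.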
